A study of Rattus norvegicus and Homo sapiens with 12 samples.

Results

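The interferon lambda pathway was followed at the RNA level in DU145, a human prostate cancer cell line, before and after selection by mesenchymal stem cell (MSC) conditioned media. The genes were the receptor chains IFNLR1 and IL10RB, the kinases JAK1, JAK2 and TYK2, the transcription factors STAT2, STAT3 and IRF9, and PDLIM2, a ubiquitin ligase for STAT proteins. They were chosen by their role in the pathway, with earlier results of these data known, and matched by Ensembl identifier. The gene lists used below were also chosen with earlier results known. Their shares beside those of all genes are therefore a description and not a test. All 9 were among the 60107 gene identifiers of the DU145 table and all 9 entered the test.

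F0 DU145 denotes the parental line, grown in DMEM with serum. F2 DU145 denotes the line that grew out after repeated culture in media conditioned by purchased human MSCs, in exposures of 72 h with recovery in complete media between them. The sample labels give 2 rounds, whereas the description of the series has the process repeated for the third time. Each population had 3 libraries, so that 6 of the 12 libraries of the series were used here, the others being rat PAIII cells, which were not analysed here. The libraries were called biological replicates, but no source used here said whether the F2 libraries came from separate selections, so p-values measure only the spread between these libraries. F2 is a line that survived selection, and a change in which cells were present cannot be told apart from a change in RNA per cell. The RNA was taken from the lines as recovered, and no library was made after stimulation with an interferon lambda.

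Interferon lambdas, which include IL-28, are cytokines made mostly during viral infection. They bind IFNLR1, whose expression is largely restricted to epithelial cells, together with IL10RB, a chain shared with the receptors for IL-10, IL-22 and IL-26. JAK1 and TYK2, bound to the receptor tails, then phosphorylate STAT proteins. STAT2 joins IRF9 and another STAT in the ISGF3 complex, which switches on antiviral genes, whereas STAT3 acts as a dimer at genes for survival and proliferation. SOCS proteins are made in response and close the loop by blocking the kinases or the receptors.

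The libraries held between 15879480 and 16479239 reads counted in genes, which makes 3 counts equal to 0.177 to 0.195 CPM, the counts scaled to a common library total. Here CPM are corrected by trimmed mean of M-values (TMM) factors. The factors were 1.029 to 1.034 in F0 and 0.9683 to 0.971 in F2, and reads outside genes were 9.6% to 10% in F0 and 11.3% to 11.9% in F2. The epithelial markers of DU145 were present, with 7 of 8 tested and KRT5 at 0 throughout. Their summed level was 1640 to 1700 CPM in F0 and 1830 to 1860 CPM in F2, but the markers moved in both directions. KRT19 (254.7 to 405.3 CPM), KRT18, KRT8 and EPCAM rose, whereas KRT7 (603.4 to 510.7 CPM) and CDH1, the gene of E-cadherin (13.99 to 5.78 CPM), fell (edgeR). The groups of KRT8 overlapped, with F0 replicate 3 at 311.7 CPM and F2 replicate 1 at 310.9 CPM. Of 22 MSC markers, 12 had at most 3 counts in every library, and THY1, LUM, POSTN, SPARC, CXCL12 and VCAM1 were at 0 in all 6. The summed MSC marker level was 1550 to 1730 CPM in F0 and 1670 to 1790 CPM in F2, most of it from VIM and NT5E. Of the 7 that could be tested, NT5E (157.7 to 221.7 CPM) and NES (5.73 to 8.05 CPM) rose and FN1 (4.88 to 3.40 CPM) and TAGLN (32.9 to 26.5 CPM) fell. The marker changes were called under TMM scaling and were not followed under other scalings. Their part in the results on the pathway was not tested. Of the 6 blood cell markers 5 stayed at or under 3 counts.

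Since the libraries were primed at the poly(A) tail, counts come from near the 3′ end of transcripts, and the annotated end of 1 representative transcript per gene is shown here as a 30-base window of the reference (GRCh38, GENCODE 29), written 5′ to 3′ on the strand of the gene. Capitals mark the poly(A) signal, AATAAA or ATTAAA, searched on the strand of the gene alone in the last 50 bases of that transcript. Which of the annotated ends of a gene the reads came from was not tested.

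IFNLR1, chr1:24154179-24154208, minus strand: ctaaactgtttaAATAAAgagctctatttt
IL10RB, chr21:33297181-33297210, plus strand: tgctggtgctccATTAAAgttttactctgt
JAK1, chr1:64833233-64833262, minus strand: actctttatacaAATAAAtatactaaagac
JAK2, chr9:5128144-5128173, plus strand: cttgctgttttgATTAAAaagaaaatagtt
TYK2, chr19:10350536-10350565, minus strand: ccaccatctggtAATAAActcatgttttct
STAT3, chr17:42313330-42313359, minus strand: ttaacttccagaAATAAAcgttatatagga
IRF9, chr14:24166530-24166559, plus strand: ctaaggacttaaAATAAAattttattgaaa

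IL10RB and JAK2 carried the variant ATTAAA and the others AATAAA. Over 19666 annotated transcripts the last 50 bases held AATAAA in 59.1%, ATTAAA in 16.9% and either in 72.3%. STAT2 had neither hexamer in the last 50 bases of its representative transcript. That transcript ends at 56342710, short of the annotated end of the gene at 56341597, and other ends were not searched. PDLIM2 is not shown. All windows lie in the 3′ UTR within the last exon.

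From F0 to F2, IL10RB fell by 22.6% and STAT3 fell by 14.6%. They were the only 2 of the 9 genes past the threshold (adjusted p under 0.05, edgeR quasi-likelihood). IFNLR1, the chain that makes the receptor specific for interferon lambda, stayed within the spread of its replicates. None of the kinases passed the threshold, nor did STAT2, IRF9 or PDLIM2. The members called were thus 22.2% of 9, where 18.2% of the 14316 genes tested were called, 9.49% as higher and 8.67% as lower in F2. The 3 members whose groups did not overlap made 33.3%, against 34% of all genes, so both shares were near those of all genes tested. No member both passed the threshold and changed by 2-fold, which 1.67% of genes did. The median log2 fold change was 0.08 over the members and 0.00 over all genes.

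**Figure D1:**
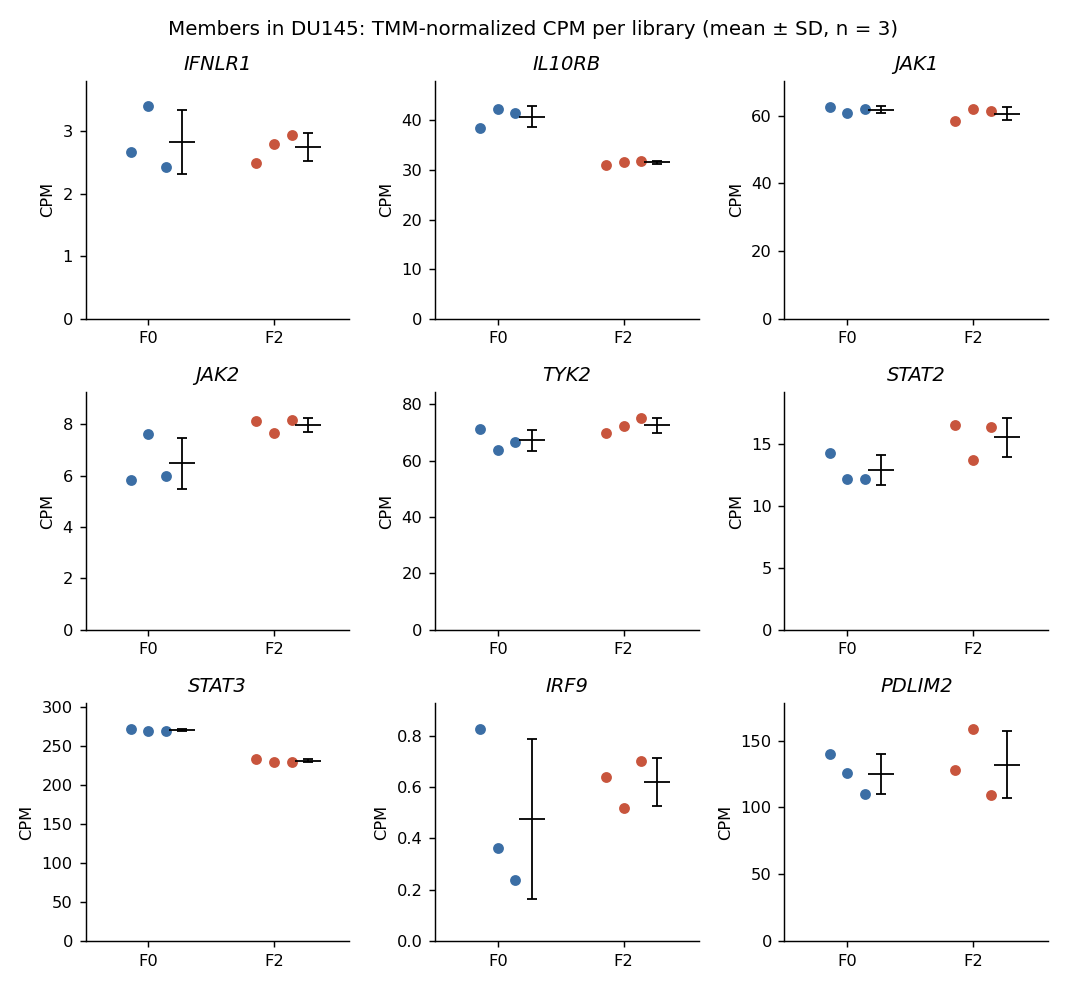
TMM-normalized CPM of the 9 genes in each of the 3 F0 (blue) and 3 F2 (red) DU145 libraries, with mean and SD (n = 3) beside the points and axes that start at 0. IL10RB and STAT3 show tight groups that do not overlap, with F2 below F0. The JAK2 groups do not overlap either, with F2 narrowly above F0, whereas IFNLR1, JAK1, TYK2, STAT2, IRF9 and PDLIM2 overlap.

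The receptor was considered first. IFNLR1 (ENSG00000185436) lies on the minus strand of chromosome 1 at 24154157 to 24187959, with 7 exons and a 3′ UTR of 2973 bases in the last one. Its F0 libraries held 45, 56 and 41 counts and its F2 libraries 39, 43 and 46, or 2.66, 3.39 and 2.43 CPM against 2.49, 2.79 and 2.93 CPM. The groups overlapped entirely, and both the highest and the lowest library were F0. The F0 mean was 2.83 ± 0.504 CPM and the F2 mean 2.74 ± 0.224 CPM (SD, n = 3), a log2 fold change of -0.04 with a standard error of 0.21 (adjusted p = 0.92, edgeR). The 95% interval ran from -0.49 to 0.40, or from 0.713-fold to 1.32-fold, and a change inside it was not detectable at this depth.

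IL10RB (ENSG00000243646), the shared chain, lies on the plus strand of chromosome 21 at 33266358 to 33310187. Its representative transcript has its last exon at 33296184 to 33297234, short of the annotated end of the gene. IL10RB had 650, 698 and 702 counts in F0 and 486, 488 and 498 in F2. In CPM the F0 libraries were at 38.4, 42.3 and 41.5 and the F2 libraries at 31.1, 31.7 and 31.8. Every F2 library was below every F0 library, and the F2 libraries lay within a narrow band. The mean fell from 40.7 ± 2.07 to 31.5 ± 0.375 CPM (SD, n = 3), a log2 fold change of -0.37 with a standard error of 0.07 and a 95% interval of -0.52 to -0.23 (adjusted p = 0.00078, edgeR). A readthrough gene, IFNAR2-IL10RB, covers 977 of the 1051 bases of the last exon on the same strand and was itself listed at 0 in all 6 libraries. Reads that touch both genes can be left uncounted as ambiguous, and their part in the level was not tested.

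Since only IL10RB passed the threshold, the ratio of IFNLR1 to IL10RB within a library was compared. It was 0.0692, 0.0802 and 0.0584 in F0 and 0.0803, 0.0881 and 0.0924 in F2, the F2 libraries lying above those of F0 but with the nearest pair almost touching. On the log2 scale the mean went from -3.86 ± 0.229 to -3.53 ± 0.103 (SD, n = 3), a difference of 0.34 (two-sided exact permutation p = 0.1, adjusted p = 0.1 over 3 ratios). With 3 libraries against 3 the smallest p that this test can give is 0.1, so it cannot pass 0.05.

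The other members of the class II cytokine receptor family, which share the fold of IL10RB, were then examined. This list was also chosen with earlier results of these data known. Of 9 genes 7 were tested and 2 passed the threshold, both lower in F2 (28.6%, where 8.67% of all genes were called lower), with a median log2 fold change of -0.23. Those 2, IFNAR2 and IFNGR2, are the neighbours of IL10RB on chromosome 21, where IFNAR2, IL10RB, IFNAR1 and IFNGR2 stand in a row. IFNAR2, the high-affinity chain of the type I interferon receptor, was at 80.8, 84.1 and 75.3 CPM in F0 and at 70.0, 71.8 and 62.9 CPM in F2. It fell by 0.23 on the log2 scale (adjusted p = 0.012, edgeR), but the call was lost without F0 replicate 2 (adjusted p = 0.095) and without F2 replicate 3 (adjusted p = 0.081). IFNGR2, the signaling chain of the interferon gamma receptor, was at 56.6, 59.4 and 58.6 CPM in F0 and at 43.7, 45.5 and 49.2 CPM in F2. Its groups were well apart, and it fell by 0.34 on the log2 scale with a standard error of 0.06 (adjusted p = 0.00081, edgeR).

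IFNAR1, which lies between them and pairs with IFNAR2, was close to level. Its values were 50.9, 49.7 and 52.0 CPM in F0 and 49.7, 49.7 and 54.9 CPM in F2, with overlapping groups. Its log2 fold change was 0.02, with an interval of -0.11 to 0.15 that excludes the estimates of IL10RB, IFNAR2 and IFNGR2, although the difference between these genes was not itself tested. For IFNGR1, the ligand-binding partner of IFNGR2 on chromosome 6, the log2 fold change was 0.02 (adjusted p = 0.95). IL20RB, a chain of the IL-20 receptors, was at -0.90 on the log2 scale (adjusted p = 0.053) with means of 1.97 CPM in F0 and 1.05 CPM in F2, and IL22RA1 and IL10RA, with means of 0.816 to 1.24 CPM, did not pass. IL20RA and IL22RA2 were too low to test.

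**Figure D2:**
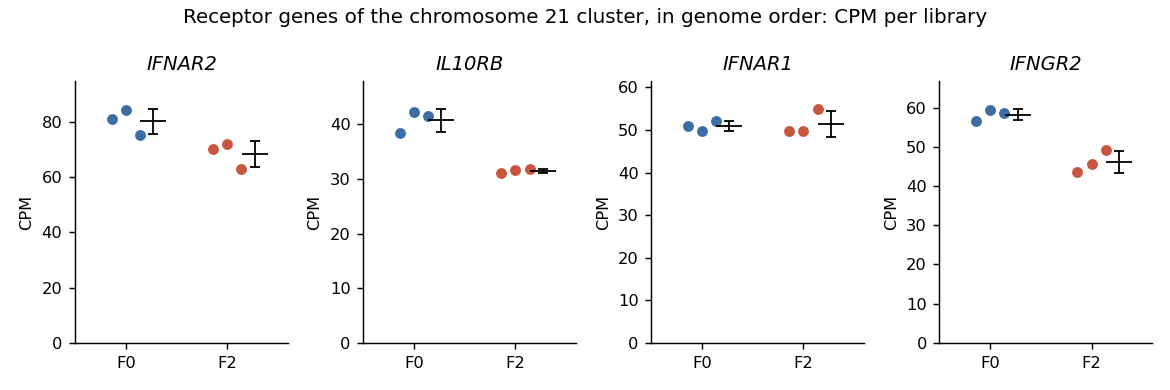
TMM-normalized CPM of IFNAR2, IL10RB, IFNAR1 and IFNGR2, in their order along chromosome 21, for 3 F0 (blue) and 3 F2 (red) DU145 libraries, with mean and SD (n = 3). F2 lies below F0 for IFNAR2, IL10RB and IFNGR2, and the groups overlap for IFNAR1.

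The ligands could not be compared. IFNL2 and IFNL3, which encode IL-28, and IFNL4 had 0 counts in all 6 libraries, and IFNL1 had at most 1 count in F0 and 0 in F2. For reads that align to a single place, a count of 0 allows a level of up to 0.177 to 0.195 CPM in these libraries, counting error only. Reads with several alignments were left out of the gene counts. Their tally was 0.536 to 0.624 per gene count, and it may hold a read more than once. Whether any of these reads came from IFNL2 or IFNL3 was not tested, so the 0 sets no bound for such reads.

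JAK1 (ENSG00000162434; chromosome 1, minus strand, 64833229 to 64966504, 25 exons), the kinase bound to IFNLR1, had 1062, 1005 and 1047 counts in F0 and 913, 957 and 965 in F2. This corresponded to 62.7, 60.9 and 62.0 CPM in F0 and 58.4, 62.2 and 61.5 CPM in F2, with overlapping groups. The log2 fold change was -0.03 with a 95% interval of -0.15 to 0.09 (adjusted p = 0.79, edgeR), so a change as large as that of IL10RB lies outside the interval. TYK2 (ENSG00000105397; chromosome 19, minus strand, 10350529 to 10380676, 25 exons), the kinase bound to IL10RB, was at 71.3, 63.8 and 66.6 CPM in F0 and at 69.9, 72.3 and 75.3 CPM in F2. These also overlapped, with a log2 fold change of 0.11 and an interval of -0.01 to 0.23 (adjusted p = 0.22, edgeR).

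JAK2 (ENSG00000096968; chromosome 9, plus strand, 4984390 to 5128183, 25 exons), which serves the interferon gamma receptor and the receptors of the IL-6 family, had the lowest counts of the kinases. It had 99, 126 and 101 counts in F0 and 127, 118 and 128 in F2, or 5.85, 7.63 and 5.98 CPM against 8.12, 7.66 and 8.16 CPM. The groups did not overlap, but F0 replicate 2 lay just under F2 replicate 2. The log2 fold change was 0.30 with a standard error of 0.14 and a 95% interval of 0.006 to 0.595. JAK2 did not pass the threshold (unadjusted p = 0.046, adjusted p = 0.15, edgeR). For JAK3, a kinase of blood cells, the log2 fold change was 0.36 (adjusted p = 0.41). The last exons of JAK1 and JAK2 are each overlapped by a gene on the opposite strand. The strand setting of the counts is not given, and the part of these overlaps was not tested.

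Within libraries, the ratio of JAK1 to TYK2 was 0.879, 0.954 and 0.930 in F0 and 0.835, 0.859 and 0.817 in F2. All F2 libraries were below all F0 libraries. The mean log2 ratio went from -0.12 ± 0.060 to -0.26 ± 0.036 (SD, n = 3), a difference of -0.14 (two-sided exact permutation p = 0.1, the smallest that 3 against 3 can give).

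STAT3 (ENSG00000168610) lies on the minus strand of chromosome 17 at 42313324 to 42388568, has 24 exons and no other gene over its last exon. It had 4599, 4447 and 4548 counts in F0 and 3648, 3530 and 3600 in F2. In CPM these were 271.6, 269.3 and 269.1 against 233.2, 229.2 and 229.5. Both groups were tight, and the gap between them was many times the spread within either. The mean fell from 270.0 ± 1.35 to 230.7 ± 2.23 CPM (SD, n = 3), a log2 fold change of -0.23 with a standard error of 0.04 and a 95% interval of -0.32 to -0.14 (adjusted p = 0.00076, edgeR). The change was modest in size, and 626th among the 14316 genes by adjusted p, with IL10RB at 636th. These values are of RNA and say nothing of phosphorylated STAT3.

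STAT2 (ENSG00000170581; chromosome 12, minus strand, 56341597 to 56360155, 24 exons), the partner of IRF9 in ISGF3, had 242, 201 and 206 counts in F0 and 258, 211 and 257 in F2. It was at 14.3, 12.2 and 12.2 CPM in F0 and at 16.5, 13.7 and 16.4 CPM in F2, so that F2 replicate 2 fell inside the F0 range. The log2 fold change was 0.27 with a standard error of 0.11 and a 95% interval of 0.039 to 0.499. It did not pass the threshold (unadjusted p = 0.024, adjusted p = 0.10, edgeR). This hung on single libraries. Without F0 replicate 1 it was 0.35 (adjusted p = 0.049) and without F2 replicate 2 it was 0.35 (adjusted p = 0.033).

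Since STAT2 and STAT3 stand for the antiviral and the survival arm of the pathway, their ratio was compared within libraries. STAT3 counts were 19.0, 22.1 and 22.1 times those of STAT2 in F0 and 14.1, 16.7 and 14.01 times in F2. The groups did not overlap. The mean log2 ratio went from 4.39 ± 0.126 to 3.90 ± 0.144 (SD, n = 3), a difference of -0.50 (two-sided exact permutation p = 0.1, the smallest possible).

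IRF9 (ENSG00000213928; chromosome 14, plus strand, 24161053 to 24166565, 9 exons), the DNA-binding subunit of ISGF3, was close to the limit of detection, with 14, 6 and 4 counts in F0 and 10, 8 and 11 in F2. The log2 fold change of 0.38 had a standard error of 0.48 and an interval of -0.63 to 1.38 (adjusted p = 0.65, edgeR), so no direction can be given. Leaving out a library moved it between 0.05 and 1.03, the latter without F0 replicate 1. All 444 bases of its last exon lie under a readthrough gene, ENSG00000259529, on the same strand, and that gene had 2, 1 and 2 counts in F0 and 6, 9 and 4 in F2. The level of IRF9 is therefore uncertain, and the part of the overlap in it was not tested. Summed over both genes, F0 had 16, 7 and 6 counts and F2 had 16, 17 and 15.

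PDLIM2 (ENSG00000120913, chromosome 8), which marks STAT proteins for degradation, was the least even of the well counted genes. It had 2367, 2080 and 1857 counts in F0 and 2001, 2448 and 1720 in F2, or 139.8, 126.0 and 109.9 CPM against 127.9, 159.0 and 109.7 CPM. The highest and the lowest library were both F2, and the group means of 125.2 ± 15.0 and 132.2 ± 24.9 CPM (SD, n = 3) differed by less than either SD. Its log2 fold change was 0.08 with an interval of -0.12 to 0.28 (adjusted p = 0.63, edgeR). Another gene on the same strand covers 100 of the 566 bases of its last exon and was at 0 in all 6 libraries. The part of this overlap in the level of PDLIM2 was not tested.

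**Figure D3:**
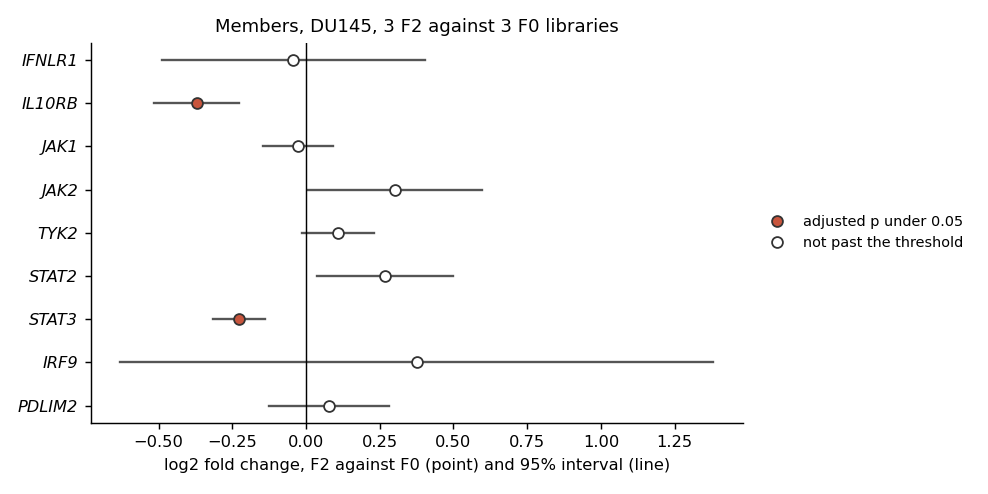
Log2 fold change of F2 against F0 DU145 for the 9 genes (point) with its 95% interval (line) from edgeR, 3 libraries a group. IL10RB and STAT3 (filled) lie below 0 and passed the threshold, and the IRF9 interval spans from -0.63 to 1.38.

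Among 5 further JAK and STAT genes, STAT6 rose and STAT4 fell (40%, against 18.2% of all genes), and with library size alone STAT5A was called lower as well. STAT6, the IL-4 and IL-13 signal transducer, was at 48.4, 46.2 and 51.0 CPM in F0 and at 61.5, 65.2 and 64.1 CPM in F2. The groups were far apart, with a log2 fold change of 0.39 (adjusted p = 0.00012, edgeR). STAT4, which serves IL-12 in lymphocytes, was at 2.95, 4.24 and 3.37 CPM in F0 and 1.66, 1.69 and 2.74 CPM in F2, a log2 fold change of -0.79 (adjusted p = 0.026). That call was lost without F0 replicate 2 (adjusted p = 0.15), F0 replicate 3 (0.052), F2 replicate 1 (0.12) and F2 replicate 2 (0.079), and with DESeq2 (0.078). STAT5A and STAT5B, which adjoin STAT3 on chromosome 17, had log2 fold changes of -0.50 (adjusted p = 0.058) and 0.03 (adjusted p = 0.86). None of the 4 tested genes within 100000 bases of STAT3 passed the threshold.

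Of 19 inhibitors of JAK and STAT signaling, 16 were tested and 5 passed the threshold (31.2%, against 18.2% of all genes), of which 2 rose and 3 fell, but with library size alone 1 was called higher (SOCS3) and 5 lower (SOCS2, SOCS6, SOCS7, PIAS3 and PIAS4). The median log2 fold change was -0.07. SOCS3, which binds JAK and the IL-6 receptor chain and is itself induced by STAT3, was at 15.9, 18.1 and 16.0 CPM in F0 and 22.5, 23.4 and 20.5 CPM in F2. It rose by 32.9% with no overlap between the groups (log2 fold change 0.41, standard error 0.09, adjusted p = 0.0039, edgeR). SOCS2, which restrains growth hormone signaling, went the other way, from 28.3, 30.1 and 32.6 CPM to 17.7, 23.9 and 19.8 CPM. It fell by 0.57 on the log2 scale (adjusted p = 0.00038), and both calls held under every alternative run.

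The other 3 were less firm. SOCS6 fell by 0.38 on the log2 scale (adjusted p = 0.014) and was lost without F0 replicate 1 (0.061) or F2 replicate 3 (0.063). PIAS1, a SUMO ligase that blocks STAT binding to DNA, rose by 0.24 on the log2 scale (adjusted p = 0.017), and PIAS4, of the same family, fell by 0.24 (adjusted p = 0.033). PIAS1 was lost without F0 replicate 1, F2 replicate 1 or F2 replicate 3 (adjusted p of 0.061, 0.055 and 0.056) and with library size alone (0.11). PIAS4 was lost without F0 replicate 1, F2 replicate 1 or F2 replicate 2 (0.15, 0.16 and 0.058) and with DESeq2 (0.073). Without F0 replicate 1 only 2 inhibitors passed in all, and without F2 replicate 1 only 3 did. SOCS1, the inhibitor best known for interferon signaling, was too low to test, with a mean of 0.658 CPM in F0 and 0.665 CPM in F2. The phosphatases PTPN1, PTPN2, PTPN6 and PTPN11 had log2 fold changes between -0.03 and 0.04.

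**Figure D4:**
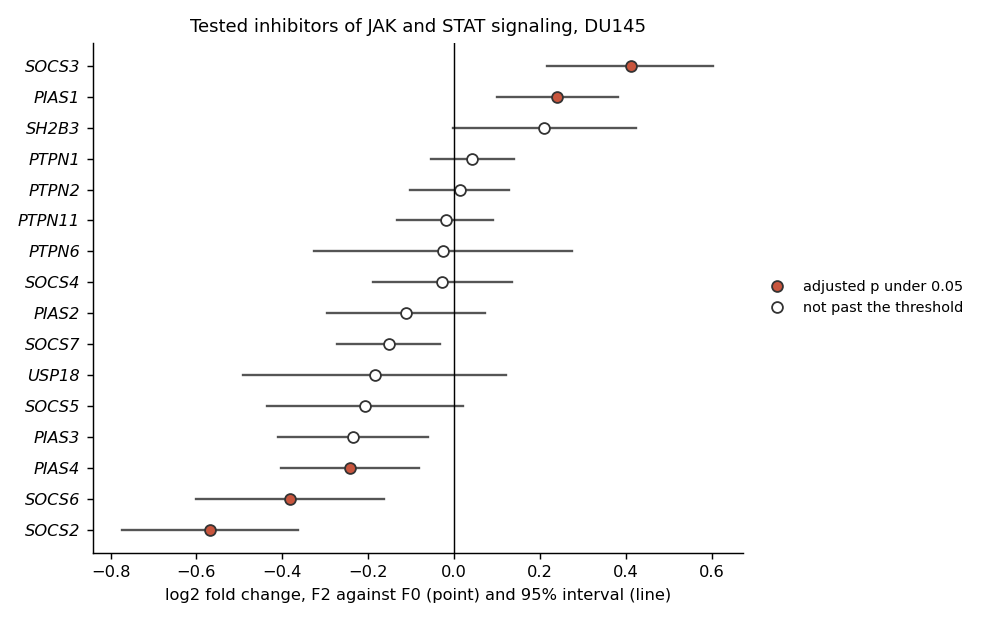
Log2 fold change of F2 against F0 DU145 for the 16 tested inhibitors of JAK and STAT signaling (point) with its 95% interval (line). Filled points passed the threshold, SOCS3 and PIAS1 above 0 and SOCS2, SOCS6 and PIAS4 below it.

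Of 11 other receptors and partners of STAT3, 10 were tested and 3 passed the threshold (30%, against 18.2% of all genes), 2 higher and 1 lower, but with library size alone as the scaling none was called higher and 4 were called lower (HES1, LIFR, IL11RA and NDUFA13). The median log2 fold change was -0.07. HES1, a Notch effector that can scaffold JAK2 and STAT3, was at 35.6, 36.9 and 35.3 CPM in F0 and 27.4, 28.2 and 31.3 CPM in F2, and fell by 0.31 on the log2 scale (adjusted p = 0.0057, edgeR). IL6R rose by 0.24 (adjusted p = 0.034) and EGFR by 0.14 (adjusted p = 0.040) on the log2 scale. Both were fragile, with IL6R and EGFR each called in 7 of the 13 alternatives. Only 1 of the 10 passed without F0 replicate 2 or without F2 replicate 1.

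Although STAT3 RNA was lower, 7 of the 14 tested STAT3 target genes were higher in F2 and none was called lower, but with library size alone as the scaling the calls were 4 higher and 4 lower. That 50% stands beside 9.49% of all genes called higher. The shares were not matched for expression level, although small changes are called more readily in well counted genes. The list holds textbook targets, is not specific to STAT3 and was chosen with earlier results of these data known. What that choice adds to the share was not tested. The median log2 fold change was 0.13. VEGFA, the angiogenic factor, rose from 74.8, 80.6 and 83.3 CPM to 101.9, 108.2 and 98.4 CPM (log2 fold change 0.37, adjusted p = 0.00011, edgeR). PIM1, a survival kinase, rose from 31.1, 30.1 and 32.7 CPM to 40.9, 36.3 and 44.8 CPM (log2 fold change 0.38, adjusted p = 0.0021). In both genes all F2 libraries lay above all F0 libraries. VEGFA, PIM1 and SOCS3 were called under all 13 alternatives.

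Of the BCL2 family, MCL1 was at 529.7, 527.3 and 544.6 CPM in F0 and 609.7, 584.4 and 630.7 CPM in F2 (log2 fold change 0.19, adjusted p = 0.0040, edgeR). BCL2L1, which encodes the other main survival protein of the list, rose by 0.24 on the log2 scale (adjusted p = 0.021), carried largely by F2 replicate 2 at 85.1 CPM beside 72.3 and 68.0. Without that library it was 0.14 (adjusted p = 0.11), and without F0 replicate 2 the adjusted p was also 0.11. CCND1, the cell cycle cyclin, was at 273.3, 269.1 and 269.7 CPM in F0 and 309.1, 306.6 and 303.3 CPM in F2 (log2 fold change 0.18, adjusted p = 0.0050). BCL6, a transcriptional repressor, rose by 0.50 on the log2 scale (adjusted p = 0.015) and was lost without F0 replicate 3 (0.057) or F2 replicate 1 (0.11). With library size alone as the scaling MCL1, BCL2L1 and CCND1 were not called, and BCL3, BIRC5, ICAM1 and JUNB, named here after their values were seen, were called lower. Without F2 replicate 2, ICAM1 and JUNB were called lower too. The log2 fold change of BIRC5, which encodes survivin, was -0.10 (adjusted p = 0.14).

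**Figure D5:**
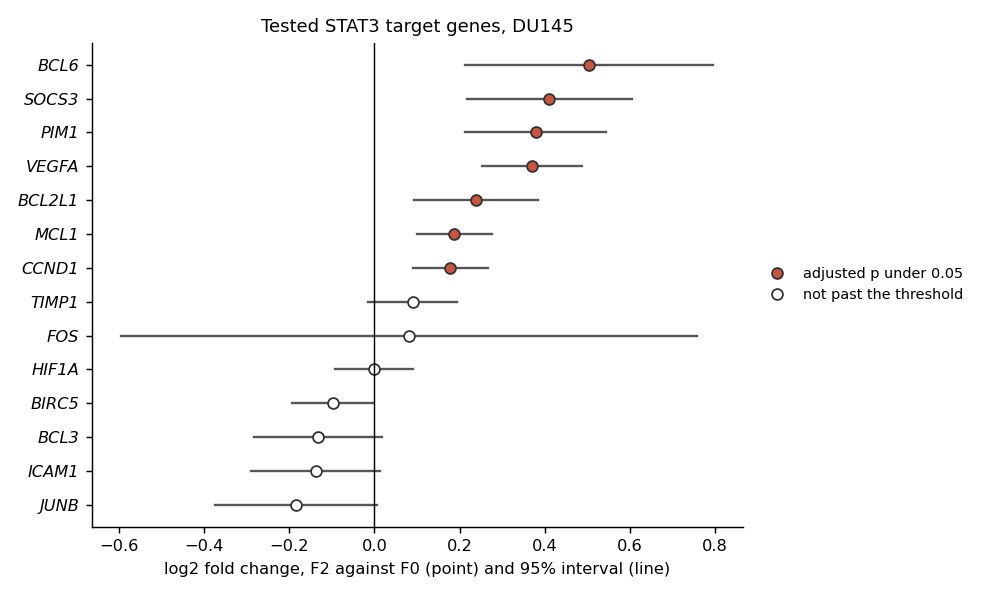
Log2 fold change of F2 against F0 DU145 for the 14 tested STAT3 target genes (point) with its 95% interval (line). The 7 filled points passed the threshold and lie above 0 under TMM scaling, while with library size alone 4 genes were called higher and 4 lower.

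Among the targets of ISGF3 all calls were in the other direction. Of 27 genes 18 were tested and 4 passed the threshold (22.2%), all of them lower in F2, where 8.67% of all genes were called lower. This list too was chosen with earlier results of these data known. The median log2 fold change was -0.18, with 13 genes below 0 and 5 above. HERC5, the ligase that attaches ISG15 to proteins, fell from 22.8, 21.9 and 23.1 CPM to 16.1, 17.5 and 15.2 CPM (log2 fold change -0.47, adjusted p = 0.00083, edgeR). IFIT1, which binds viral RNA, fell from 7.15, 5.33 and 5.33 CPM to 3.33, 3.83 and 3.25 CPM (log2 fold change -0.77, adjusted p = 0.0041). These calls held in all 13 alternatives.

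OASL and DDX60, both helpers of antiviral RNA sensing, were low, at means of 2.04 and 2.14 CPM in F0 and 1.05 and 1.18 CPM in F2, with log2 fold changes of -0.96 (adjusted p = 0.024) and -0.86 (adjusted p = 0.040). OASL was lost without F0 replicate 1, F0 replicate 3, F2 replicate 1 or F2 replicate 2 and with DESeq2 (adjusted p of 0.071, 0.086, 0.092, 0.074 and 0.099). DDX60 was lost without F0 replicate 1, 2 or 3 or F2 replicate 1 or 2 and with DESeq2 (0.080, 0.075, 0.13, 0.15, 0.11 and 0.14). The count of ISGF3 targets past the threshold was then 2 without F0 replicate 1, F0 replicate 3, F2 replicate 1 or F2 replicate 2, and with DESeq2. Other classical members were not past the threshold, such as ISG15 with a log2 fold change of -0.08 and IFI6 with 0.23 (adjusted p = 0.083). RSAD2 and BST2 were at 0 in all 6 libraries.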

How the data were processed

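QuantSeq 3′ mRNA libraries (FWD kit) were made from total RNA of 3 F0 and 3 F2 DU145 samples. Per the labels, the authors aligned reads with STAR 2.5.2a and counted them per gene with HTSeq 0.6.0, and the build named is GRCh38. The gene annotation release, strand setting and overlap mode are not given in the sources used here. The deposited values are raw read counts per Ensembl gene. HTSeq leaves reads that touch overlapping genes uncounted, here 1.36% to 1.5% per library beside the gene counts, and rows that name no gene and 92 spike-in rows were left out. Symbols were found for 56104 of 60107 identifiers, and positions for 56531 from GENCODE 29.

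A filter on low counts (filterByExpr, minimum count 10, minimum total 15) left 14316 genes. F2 was compared with F0 in edgeR 4.0.16 (R 4.3.3, limma 3.58.1), with TMM scaling, the quasi-likelihood F test and Benjamini-Hochberg adjustment over all genes tested, with a threshold of 0.05. This was tested on simulated data. Within-library ratios were compared by a two-sided exact permutation test. CPM are not divided by length, and the tests compared libraries, not genes with one another. Replicate libraries differed by more than counting noise, so none was a mere recount of another library. Whether some were made from the same RNA or culture cannot be told from this.

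The 9 genes and the lists were chosen with earlier results of these data known. All 9 were named. A gene of another list was named if it passed the threshold, if its list had at most 5 genes or if it lay within 100000 bases of a member. For IFNLR1 and STAT3, the 3 genes of most alike profile were also named. Further genes (IL20RB, IL22RA1, IL10RA, IFNGR1, IL20RA, IL22RA2, SOCS1, the PTPN genes, BIRC5, BCL3, ICAM1, JUNB, SOCS7, PIAS3, LIFR, IL11RA, NDUFA13, ISG15, IFI6, RSAD2, BST2, RCL1 and the marker genes) were chosen after their values were seen. RCL1 is in none of the lists, and other unlisted neighbours of members were not named. Alternatives were median-ratio scaling, library size alone, mitochondrially encoded genes left out, 2 other count filters, a replicate block, each library left out, and DESeq2 1.42.0, which makes 13. Some genes named in the study are not reported here.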

Additional observations from a re-analysis of the deposited data

How the results depend on the processing

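STAT3 and IL10RB passed the threshold in all 13 alternatives, with log2 fold changes of -0.32 to -0.22 and -0.46 to -0.34, and 2 members passed in every alternative but those without F0 replicate 1 or F2 replicate 2, where STAT2 made 3. Over all genes, 2599 passed (1358 higher and 1241 lower). Without F0 replicate 2 this was 1670, and leaving out each library in turn gave 1670 to 2621. With library size alone 3637 passed, 832 higher and 2805 lower, and the median of all genes moved to -0.09. DESeq2 called 1911. Genes past the threshold at 2-fold or more numbered 239, against 134 with at least 10 counts in every library, 312 without a filter and 155 with DESeq2. With the replicate block 2867 genes and 2 members passed. Same-numbered libraries deviated together with r of 0.17, -0.04 and 0.17 over 8650 genes, against -0.20 to 0.07 between different numbers. Replicates 1 and 3 were thus most alike to their own number, but F0 replicate 2 was most alike to F2 replicate 3 (0.07). The main test took no pairs, and whether the numbers mark pairs was not settled. For the 3 ratios a block gives p of 0.25, the smallest possible.

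Directions that turned belonged to genes that were not called. With library size alone PDLIM2 was at -0.011, IFNAR1 at -0.073 and STAT5B at -0.058. Leaving out a library gave ranges of -0.073 to 0.197 for PDLIM2, -0.142 to 0.107 for IFNLR1, -0.042 to 0.002 for JAK1, -0.032 to 0.043 for IFNAR1 and -0.028 to 0.070 for STAT5B. The ratio differences ranged from -0.58 to -0.45 (STAT3 to STAT2), 0.22 to 0.45 (IFNLR1 to IL10RB) and -0.17 to -0.11 (JAK1 to TYK2). IL20RB passed with library size alone, with both other filters, with the block and without F0 replicate 3 or F2 replicate 2. The cause of these shifts was not tested. Depth limited IFNLR1 and IRF9 most.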

Other observations

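The genes whose profile over the 6 libraries was most like that of STAT3, among 1290 tested genes with a mean level within 2-fold of it, were COPA, GPRC5A and SLC39A6. The root mean square difference of their centred log2 CPM from STAT3 was 0.0148, 0.0150 and 0.0200, against a median of 0.132 over the candidates. Their log2 fold changes were -0.21, -0.23 and -0.20, which this choice of alike profiles largely fixes. For IFNLR1, among 2706 candidates, they were KRBA1, ENSG00000272599 and PCAT7, with differences of 0.0347, 0.0401 and 0.0431 against a median of 0.303.

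Within 1000000 bases of IL10RB, 21 genes were tested, of which 4 were called lower and none higher, with a median log2 fold change of -0.14. Over chromosome 21 the counts were 19 lower and 9 higher of 149, with 12.8% called lower and a median of -0.09, where 8.67% of all genes tested were called lower. Around STAT3 the same window held 54 tested genes, 4 lower and 4 higher, with a median of 0.01. RCL1, the tested neighbour of JAK2, rose by 0.245 on the log2 scale (adjusted p = 0.027, edgeR), a call that was lost with library size alone (adjusted p = 0.14), with DESeq2 (0.062) and without F0 replicate 1, F0 replicate 2, F2 replicate 1 or F2 replicate 3 (0.078, 0.079, 0.10 and 0.13).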
